A study of Mus musculus with 21 samples.

Results

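The 32 T cell genes described here encode parts of the T cell receptor complex, its co-receptors, its proximal signalling proteins, co-stimulatory molecules, T lineage transcription factors and receptors of T cells. They were chosen by symbol, and all 32 were found among the 19241 genes of the deposited tumour tables. The tables come from a study of physical activity in MMTV-PyMT mice, in which the promoter of mouse mammary tumour virus drives the polyoma middle T oncogene, mainly in mammary epithelium. RNA of whole mammary tumours was sequenced from sedentary and physically active mice at week 12 and week 18, with 3 tumours in each of the 4 groups. All 4 groups carried the transgene, and a group without it was not used here. The labels call the 3 tumours of a group biological replicates.

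T cells recognise peptides on other cells through a receptor whose antigen-binding chains are held by the CD3 and zeta chains. When CD4 or CD8 brings the kinase Lck to an engaged receptor, Lck phosphorylates these chains, the kinase Zap70 binds them, and the adaptor Lat is phosphorylated in turn. In mammary tumours, T cells are one part of an infiltrate that also holds macrophages and other leukocytes. In bulk tumour RNA, fewer T cells and less of an RNA per T cell cannot be told apart.

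The promoters of the receptor genes and of the first kinases of the pathway are shown because the results below are ordered around the receptor and these kinases. Of the 32 genes, 21 had an entry in the RefSeq promoter table used here (GRCm38.p6), with 30 promoters in all. Each line gives the 250 bases before an annotated start, 5′ to 3′ on the strand of the gene. Capitals mark the letters AGGAAG (a core of sites of ETS factors), TGTGGT (a core of RUNX sites) and CAGCTG (an E-box core), searched on both strands.
Cd3g, chr9:44980432-44980681, minus strand: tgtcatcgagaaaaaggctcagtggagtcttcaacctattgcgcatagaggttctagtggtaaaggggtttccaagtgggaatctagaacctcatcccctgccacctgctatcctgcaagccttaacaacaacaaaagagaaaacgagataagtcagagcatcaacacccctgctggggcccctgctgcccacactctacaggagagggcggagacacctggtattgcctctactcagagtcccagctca
Cd3d, chr9:44981536-44981785, plus strand: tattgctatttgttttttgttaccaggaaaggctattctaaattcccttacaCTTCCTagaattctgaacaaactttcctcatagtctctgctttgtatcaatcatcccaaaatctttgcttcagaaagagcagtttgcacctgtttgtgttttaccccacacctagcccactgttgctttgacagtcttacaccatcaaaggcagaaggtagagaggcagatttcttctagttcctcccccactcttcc
Cd3e, chr9:45009612-45009861, minus strand: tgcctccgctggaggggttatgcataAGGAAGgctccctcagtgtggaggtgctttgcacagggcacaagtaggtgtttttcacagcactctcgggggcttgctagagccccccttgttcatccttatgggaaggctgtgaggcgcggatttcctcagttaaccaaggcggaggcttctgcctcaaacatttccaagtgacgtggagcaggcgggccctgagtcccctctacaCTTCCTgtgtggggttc
Cd247, chr1:165788431-165788680, plus strand: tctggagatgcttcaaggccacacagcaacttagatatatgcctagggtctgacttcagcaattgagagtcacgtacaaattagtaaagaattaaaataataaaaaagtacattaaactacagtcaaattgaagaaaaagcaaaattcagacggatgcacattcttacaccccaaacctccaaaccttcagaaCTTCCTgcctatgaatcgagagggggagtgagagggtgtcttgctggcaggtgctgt
Lck, distal start, chr4:129573642-129573891, minus strand: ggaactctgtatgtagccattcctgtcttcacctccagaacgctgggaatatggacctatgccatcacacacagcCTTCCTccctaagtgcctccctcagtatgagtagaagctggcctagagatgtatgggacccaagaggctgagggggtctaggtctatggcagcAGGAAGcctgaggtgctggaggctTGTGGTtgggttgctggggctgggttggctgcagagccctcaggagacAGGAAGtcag
Lck, proximal start, chr4:129558373-129558622, minus strand: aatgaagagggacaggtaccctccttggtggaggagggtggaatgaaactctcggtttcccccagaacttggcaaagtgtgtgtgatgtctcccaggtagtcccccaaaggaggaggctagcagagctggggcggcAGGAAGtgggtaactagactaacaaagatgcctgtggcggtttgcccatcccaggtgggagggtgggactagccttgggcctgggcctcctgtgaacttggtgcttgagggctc
Zap70, second of 3 starts, chr1:36764265-36764514, plus strand: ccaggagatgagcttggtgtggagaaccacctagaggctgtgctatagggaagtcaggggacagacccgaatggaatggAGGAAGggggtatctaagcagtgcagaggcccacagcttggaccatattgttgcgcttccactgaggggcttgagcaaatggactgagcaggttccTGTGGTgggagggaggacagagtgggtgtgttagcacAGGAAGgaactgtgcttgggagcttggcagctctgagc
Cd3g and Cd3d lie head to head on chromosome 9, and Cd3e lies beside them. The ETS letters occurred in 12 of the 30 promoters (40.0%), against 29.5% of the 32841 promoters of the same length in the table. The RUNX letters occurred in 4 of 30 (13.3%) against 14%, and the E-box letters in 3 of 30 (10%) against 13.0%. Letters for TCF/LEF, GATA and TATA motifs were also searched but not marked. They occurred in 16.7% against 13.8%, 6.67% against 9.99% and 16.7% against 12.4%. None of the 3 marked motifs occurred in the Cd3g promoter shown. The first Zap70 promoter, not shown, held the ETS letters, and the third held none of the marked letters. A match of letters is a description of the sequence and not a binding site.

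One tumour stood apart from the other 11. The limma medians and the ratio tests below that include it are also given without it, while edgeR and DESeq2 were run with all tumours. In active replicate 3 of week 12, 31797 of 22273172 reads fell on the 32 genes, or 1428 RPM (reads scaled to a common library total). The other 11 tumours had 1074 to 2132 such reads, or 43.3 to 77.7 RPM. All 32 genes had their highest value of the 12 tumours in this library, where 26.3% of all 19225 genes with a mean normalized count of at least 1 did so. For 29 of the 32 genes the value was more than 4 times that of any other tumour, against 4.07% of all genes. Values are normalized counts, that is, reads divided by 1 size factor per library, and the limit of 3 reads under which a level is not told from 0 lay at 2.62 to 3.60 normalized counts.

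The excess is given by role as a description, since the ranges of the roles overlapped. Over the median of the other 11 tumours, the median fold was 44.3 for the 4 genes of the receptor complex, 46.5 for the 3 co-receptor genes, 31.6 for the 10 signalling genes and 33.6 for the 8 genes of adhesion and co-stimulation. It was 20.5 for the 4 transcription factors and 11.5 for the 3 cytokine and chemokine receptors. Among the 30 genes with a median above 3 reads in the other 11 tumours, the fold ran from 4.05 for Il2ra, the alpha chain of the interleukin-2 receptor, to 98.5 for Themis, a regulator of receptor signalling in developing T cells. Sh2d1a and Cd40lg were at or under 3 reads in the median of the other tumours, so only lower bounds hold: their values were at least 19.2-fold and at least 27.0-fold that of 3 reads. Against the highest of the other tumours, 26 genes exceeded it more than 10-fold and 14 more than 20-fold. The smallest such ratios were those of Il2ra (2.30), Lef1 (3.34), Bcl11b (3.58) and Tcf7 (4.85).

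**Figure D1:**
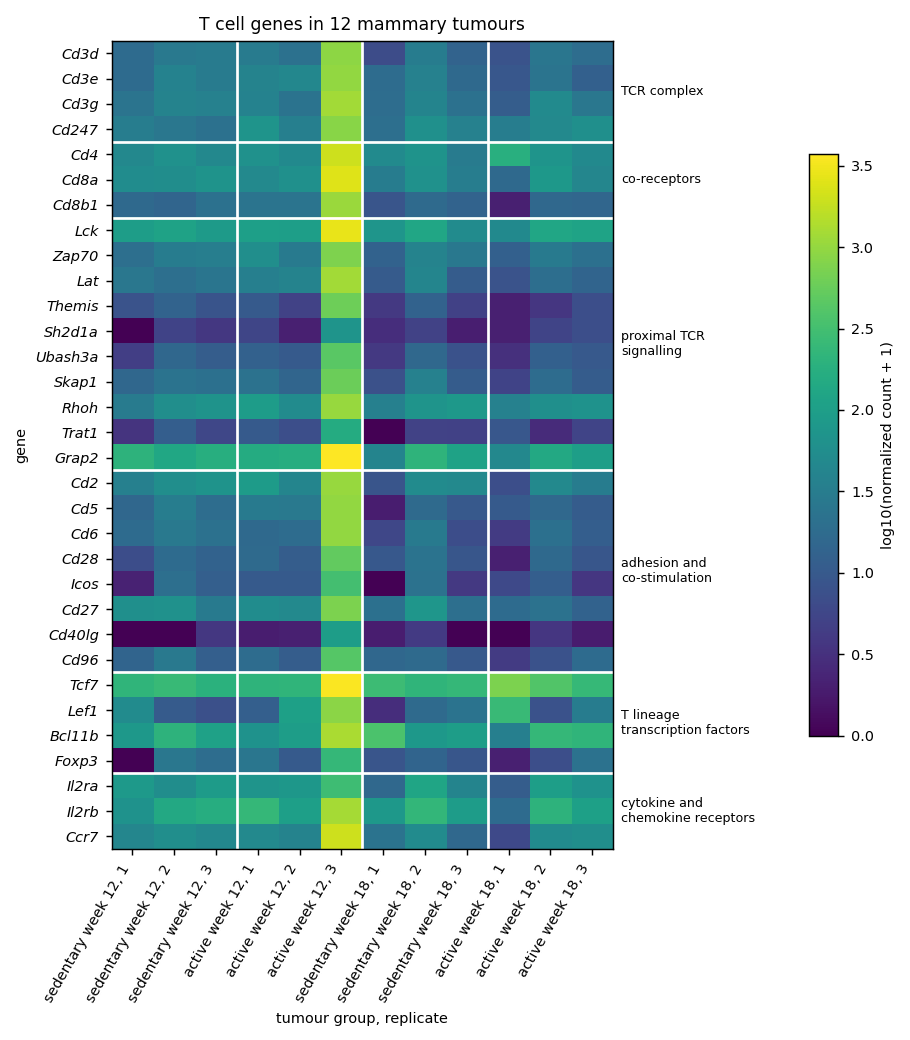
Normalized counts of the 32 T cell genes (rows, grouped by role) in the 12 tumours (columns, by group and replicate), with the colour giving log10(normalized count + 1). Active replicate 3 of week 12 has the highest value in all 32 rows, and Tcf7 and Lef1 are also high in active replicate 1 of week 18.

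Genes of other cell types moved with the T cell genes in that tumour. The 12 B cell markers had a median fold of 181 over the other 11 tumours, and their summed level was 32963 against 673 to 2423. The 12 listed markers of lymph node stroma and follicles summed to 22516 against 2178 to 3695, and 10 of the 12 were highest there. Glycam1, a mucin of lymph node vessels, had 7884 normalized counts against 0 to 44.3. Ccl21a, a chemokine of lymph node stroma, had 4705 against 3.83 to 332.

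T cell genes outside the 32 behaved likewise for the most part. All 10 listed genes of circulating naive T cells were highest there, with a median fold of 8.96. The 37 listed constant and variable genes of the T cell receptor summed to 3350 against 17.7 to 116. Of these, 30 were at a median of 3 reads or fewer in the other 11 tumours. All 37 reached a mean of 1 in a group of week 12 with this tumour, and 15 did so without it. Most of this list was thus near the limit of reads in the other tumours. Trac, the constant gene of the alpha chain, had 842 normalized counts against 3.12 to 22.8. The 26 other genes of T cell receptor signalling had a median fold of 4.14, and 24 of them were highest in this tumour. Among the 17 listed genes of activated and effector T cells 13 were highest there, with a median fold of 4.92. Of the 6 listed gamma delta T cell genes 4 were highest there, with a median fold of 8.63. Their sum of 2875, however, lay within the 1468 to 3253 of the other 11 tumours.

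Of the tissue markers, those of adipocytes lay outside the range of the other tumours. The 9 adipocyte markers summed to 342222 against 1628 to 75341. The sum of the 10 mammary epithelial and tumour markers, 104969, lay within the 99371 to 409828 of the others. Skeletal muscle markers, at 466, lay within 313 to 121745. Macrophage markers had a median fold of 1.01. Lymph node, B cell and adipocyte genes thus moved with the T cell genes in this library, and their part in the result was not tested.

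**Figure D2:**
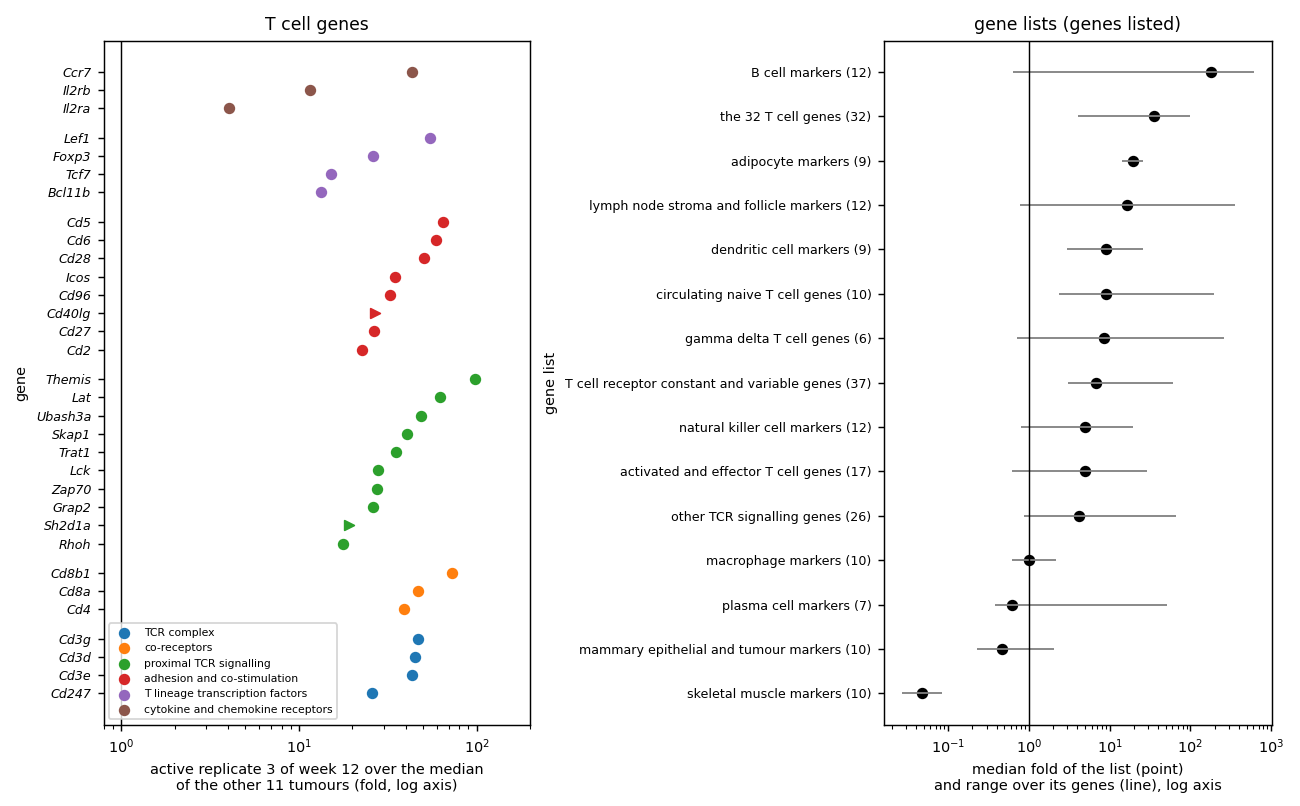
Left, fold of active replicate 3 of week 12 over the median of the other 11 tumours for each T cell gene (log axis, coloured by role, triangles are lower bounds against 3 reads). Right, the median fold (points) and the range over genes (lines) for the gene lists, with genes at a median of 3 reads or fewer set against 3 reads, from a median of 0.0482 for skeletal muscle to 181 for B cell markers.

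The 4 genes of the receptor complex were present at low levels in the other tumours. Cd3d (chr9:44981786-44987339) had 16.8, 26.3 and 29.9 normalized counts in sedentary and 30.1, 20.6 and 931 in active tumours of week 12. At week 18 it had 5.74, 30.4 and 12.9 in sedentary and 7.28, 24.5 and 17.8 in active tumours. Without the tumour that stood apart, the groups overlapped at both weeks.

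Cd3e (chr9:44998740-45009627), whose chain pairs with both Cd3d and Cd3g, had 16.8, 36.9 and 29.9 normalized counts in sedentary tumours of week 12 and 38.3, 44.3 and 986 in active ones. At week 18 the values were 17.2, 36.4 and 15.9 in sedentary and 8.32, 22.7 and 11.6 in active tumours. Its groups did not overlap at week 12, by a margin of 38.3 against 36.9, and overlapped at week 18.

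Cd3g (chr9:44969572-44980431) had 22.8, 39.0 and 35.6 normalized counts in sedentary and 37.4, 21.6 and 1174 in active tumours of week 12. Its week 18 values were 18.2, 40.5 and 20.8 in sedentary and 10.4, 50.7 and 25.0 in active tumours. With all tumours the active group held both the lowest and the highest value at each week, and without the tumour that stood apart the highest value of week 12 was a sedentary one (39.0).

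Cd247 (chr1:165788681-165877277), the zeta chain that carries most of the signalling motifs, had 31.2, 25.3 and 20.6 normalized counts in sedentary and 70.2, 34.0 and 872 in active tumours of week 12. Week 18 gave 19.1, 61.7 and 35.7 in sedentary and 31.2, 46.3 and 59.7 in active tumours. All 3 active tumours lay above the sedentary ones at week 12, and at week 18 the groups overlapped. Exons of Pou2f1 on the opposite strand cover 56.4% of the exon bases of Cd247, and the strand setting of the counting is not given in the sources used here, so its values are uncertain.

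Among the co-receptors, Cd4 (chr6:124864692-124888221), which binds MHC class II, had 45.6, 62.2 and 45.8 normalized counts in sedentary and 62.9, 48.4 and 1987 in active tumours of week 12. In week 18 tumours it had 50.7, 67.8 and 29.7 in sedentary and 178, 69.1 and 49.0 in active tumours. Active replicate 1 of week 18 was the highest of the 11 other tumours.

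Cd8a (chr6:71373427-71379173), of the MHC class I co-receptor, had 52.8, 54.8 and 66.4 normalized counts in sedentary and 47.4, 61.8 and 2457 in active tumours of week 12. Week 18 gave 30.6, 63.7 and 31.7 in sedentary and 15.6, 78.7 and 42.8 in active tumours. The tumour with the highest Cd4 of the 11 therefore had the lowest Cd8a.

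Cd8b1 (chr6:71322788-71337494), which encodes the beta chain of CD8, had 15.6, 13.7 and 20.6 normalized counts in sedentary and 22.8, 22.7 and 1082 in active tumours of week 12. At week 18 the values were 7.66, 16.2 and 12.9 in sedentary and 1.04, 14.9 and 14.3 in active tumours. Its value in active replicate 1 of week 18 was a single read, under the limit of 3 reads.

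**Figure D3:**
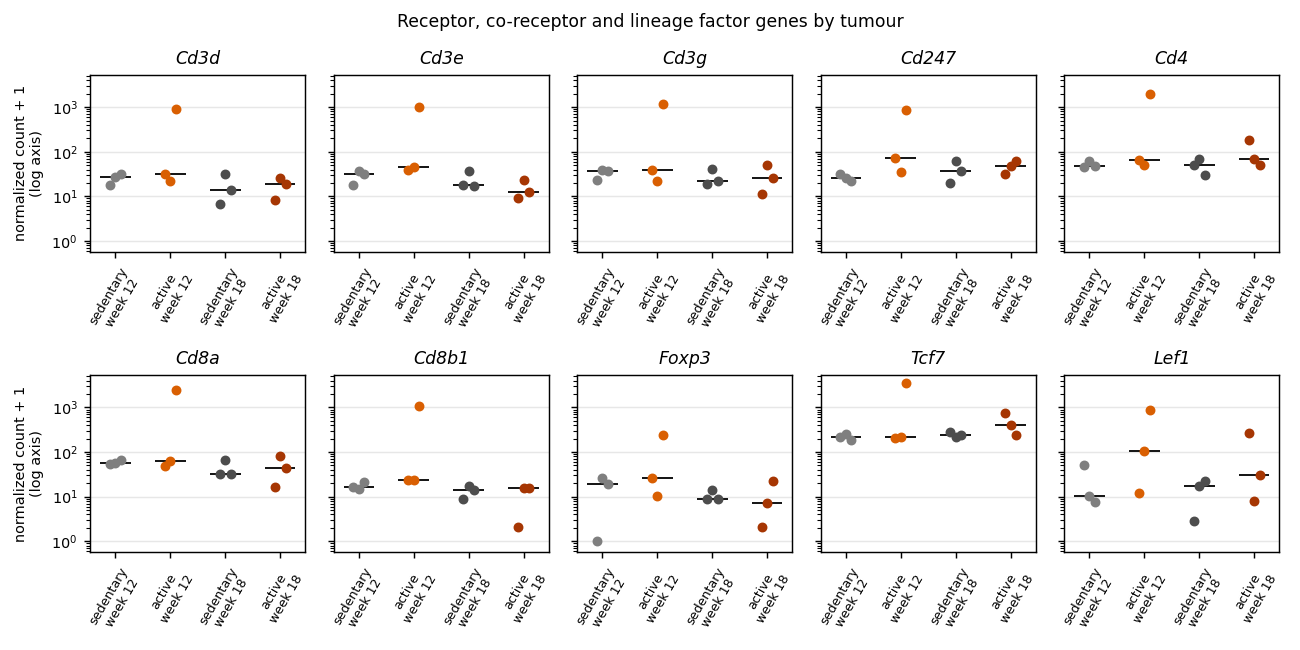
Normalized count + 1 (log axis) of 10 T cell genes in each tumour (points) by group, with the group median as a line. One active tumour of week 12 lies above all others in every panel, and active replicate 1 of week 18 is the lowest of the remaining 11 for Cd3e, Cd3g, Cd8a and Cd8b1 and the highest of them for Cd4, Tcf7 and Lef1.

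Of the 10 signalling genes, Lck and Grap2 had the highest mean over the 12 tumours. Lck, the kinase bound to the co-receptors, had 96.0, 112 and 87.0 normalized counts in sedentary and 102, 101 and 2809 in active tumours of week 12. At week 18 it had 71.8, 130 and 51.6 in sedentary and 48.9, 130 and 117 in active tumours. Week 12 was narrow among the 5 other tumours, and week 18 spread more widely in both groups.

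Grap2, an adaptor that links Lat to further signalling proteins, had 200.4, 132 and 175 normalized counts in sedentary and 154, 167 and 3725 in active tumours of week 12. At week 18 its values were 39.3, 210.5 and 113 in sedentary and 45.8, 143 and 98.1 in active tumours. Replicate 1 was the lowest of its group in both activity groups of week 18. The remaining 8 signalling genes were at medians of 2.81 to 58.6 normalized counts in the 11 tumours, Sh2d1a being the lowest and Rhoh the highest. For Sh2d1a, 26.6% of the exon bases are overlapped by Tenm1 on the opposite strand.

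Cd2 and Cd6 led the genes of adhesion and co-stimulation by mean over the 12 tumours, which includes the tumour that stood apart. In the median of the other 11, Cd27 (28.1) lay above Cd6 (16.8). Cd2, an adhesion receptor of T cells, had 34.8, 58.0 and 68.3 normalized counts in sedentary and 89.3, 41.2 and 1058 in active tumours of week 12. Its week 18 values were 7.66, 51.6 and 46.6 in sedentary and 6.24, 47.2 and 30.3 in active tumours. Replicate 1 was again the lowest of both groups at week 18.

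Cd6, a receptor that modulates T cell activation, had 16.8, 26.3 and 20.6 normalized counts in sedentary and 15.5, 17.5 and 992 in active tumours of week 12. In week 18 tumours it had 4.79, 27.3 and 5.95 in sedentary and 3.12, 20.1 and 10.7 in active tumours. Its groups overlapped at both weeks. Cd40lg, the ligand by which helper T cells act on B cells, had 0 to 3.04 normalized counts in the 11 tumours and 97.0 in the one that stood apart.

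Of the 4 transcription factors, Tcf7, a factor of early and naive T cells, had 220, 254 and 187 normalized counts in sedentary and 206, 216 and 3553 in active tumours of week 12. Week 18 gave 277, 218 and 235 in sedentary and 732, 398 and 244 in active tumours. Only active replicates 1 and 2 of week 18 exceeded 277 among the 11 tumours.

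Lef1, a relative of Tcf7, had 51.6, 9.48 and 6.55 normalized counts in sedentary and 10.9, 105 and 883 in active tumours of week 12. At week 18 it had 1.91, 16.2 and 21.8 in sedentary and 264, 6.99 and 30.3 in active tumours. Its values in active tumours of week 18 thus ran from 6.99 to 264. Gm43352 on the opposite strand covers 13.8% of its exon bases.

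Bcl11b, a factor of T lineage commitment, had 78.0, 201.3 and 110.4 normalized counts in sedentary and 64.7, 96.8 and 1296 in active tumours of week 12. Its week 18 values were 362, 78.9 and 97.2 in sedentary and 34.3, 239 and 218 in active tumours. The highest and the lowest value of the 11 tumours both came from replicates 1 of week 18, the sedentary one being the highest.

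Foxp3, the lineage factor of regulatory T cells, had 0, 25.3 and 17.8 normalized counts in sedentary and 24.6, 9.27 and 241 in active tumours of week 12. In week 18 tumours it had 7.66, 13.2 and 7.93 in sedentary and 1.04, 6.12 and 21.4 in active tumours. Sedentary replicate 1 of week 12 had no read of it, and active replicate 1 of week 18 had 1. Flicr, on the same strand as Foxp3 although annotated as an antisense gene, covers 18.6% of the exon bases of Foxp3. Ccdc22 on the opposite strand covers 12.9%.

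Among the receptors of cytokines and chemokines, Il2rb, the beta chain of the interleukin-2 receptor that natural killer cells also express, had 66.0, 140.2 and 166 normalized counts in sedentary and 241, 102 and 1223 in active tumours of week 12. Week 18 gave 80.4, 230 and 92.2 in sedentary and 16.6, 200.2 and 106 in active tumours. The groups overlapped at both weeks.

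Ccr7, which guides naive T cells and dendritic cells to lymph nodes, had 43.2, 56.9 and 45.8 normalized counts in sedentary and 46.5, 39.1 and 1980 in active tumours of week 12. At week 18 it had 22.0, 51.6 and 14.9 in sedentary and 5.20, 51.6 and 57.9 in active tumours. Dendritic cell markers summed to 7973 in the tumour that stood apart and to 947 to 1594 in the others.

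Levels between genes can be compared only per length. Per 1 kb of exon, the median over the 11 tumours was highest for Tcf7 (89.5 normalized counts per kb), followed by Lck (34.5) and Cd2 (26.8). Cd8a (14.5), Cd4 (12.6), Cd3d (11.4) and Cd8b1 (10.02) lay within a narrow range, and the spread over tumours of each exceeded the differences between them. Foxp3 had 2.03 normalized counts per kb.

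The first comparison asked whether activity changed the T cell genes of tumours at week 12. No T cell gene passed the test, and their values in active tumours rested on 1 library. With all 6 tumours, limma called 99 of 19162 genes below an adjusted p-value of 0.05 (0.517%). Among them were 0 of the 32 T cell genes, and none of these 32 (0) had a raw p-value below 0.05. The lowest limma adjusted p-value of a T cell gene was 0.970. Their median log2 fold change was 1.78, against 0.012 over all genes tested, and ran from 0.63 for Il2ra to 2.69 for Lef1. All 32 estimates were above 0. On recovered reads edgeR called 0 of the 32 and 76 of all genes (0.397%), with 13 T cell genes below 0.05 before adjustment. DESeq2 also called 0 of the 32 and 208 of all genes (1.09%), with 6 T cell genes below 0.05 before adjustment and a lowest adjusted p-value of 0.0704. Its default settings can leave a gene with an extreme count in 1 library without a p-value. How many of the 32 had none is not given, so a gene not called by DESeq2 may be untested. The median over the 32 genes was 3.52 with edgeR and 3.53 with DESeq2.

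Without active replicate 3, 31 of the 32 genes were tested, and the median was 0.23 on the log2 scale, against 0.001 over all genes. Of these genes 20 were higher and 11 lower in the 2 remaining active tumours, and limma called 0 of 31 (0.348% of 18954 genes were called). Only Lat was below 0.05 before adjustment. Estimates with and without that tumour were 1.79 and 0.07 for Cd3d, 2.13 and 0.62 for Cd3e, 2.30 and 0.92 for Cd247, and 1.84 and 0.12 for Cd4. For Cd8a they were 1.74 and -0.09.

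In 4 of the 32 genes, Cd3e, Cd247, Cd8b1 and Lat, every active tumour of week 12 lay above every sedentary one, where 4.36% of all genes did. Leaving out a tumour of the higher group cannot end such a separation, so the same 4 genes, of 31 tested, were separate without active replicate 3, where 9.73% of all genes were. Lat, the adaptor downstream of Zap70, had 25.2, 19.0 and 23.4 normalized counts in sedentary and 33.7, 38.1 and 1186 in active tumours. Its log2 fold change was 2.33 with a standard error of 1.44 with all tumours, and 0.66 (standard error 0.18, limma adjusted p-value 0.677) without active replicate 3. In no T cell gene did every active tumour lie below, with all tumours (4.78% of all genes) or without that replicate (9.82%). Skeletal muscle markers also differed between these groups, with 9 of 10 called lower in active tumours (1 of 10 without active replicate 3) and sums of 56412 to 121745 in sedentary against 313 to 1369 in active tumours, and their part in the result was not tested.

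**Figure D4:**
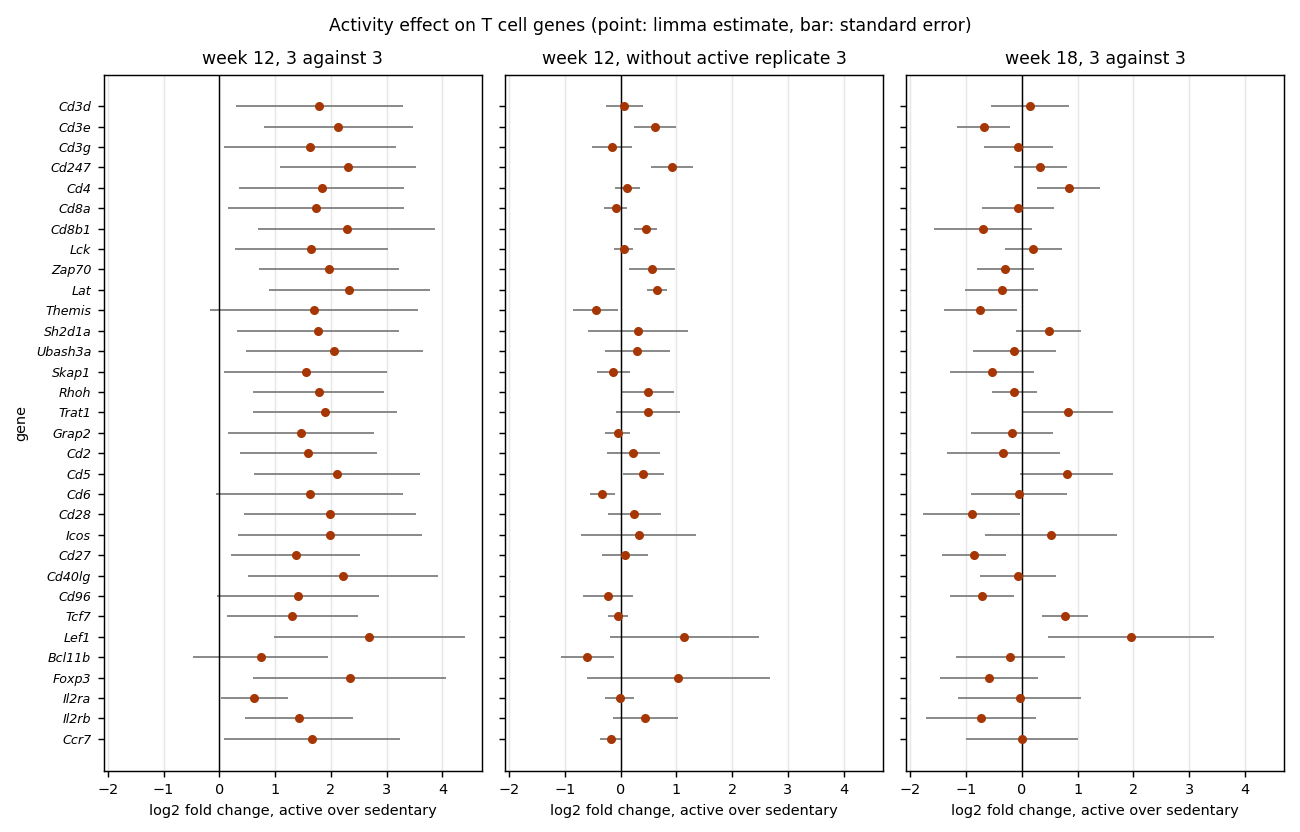
Log2 fold change of active over sedentary tumours (points, limma on log2(value + 1)) with its standard error (bars) for each T cell gene at week 12, at week 12 without active replicate 3, and at week 18. The estimates of week 12 lie between 0.63 and 2.69 with all tumours, and on both sides of 0 without that replicate and at week 18.

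At week 18, no T cell gene passed the test either. Limma called 0 of 18939 genes (0%), with 1131 below 0.05 before adjustment, and none of these was a T cell gene. The median log2 fold change of the 32 genes was -0.10, against 0.009 over all genes, with 10 above and 22 below 0. The lowest was that of Cd28 (-0.90, standard error 0.86) and the highest that of Lef1 (1.95, standard error 1.49). edgeR called 0 genes and DESeq2 52 (0.275%), none of them a T cell gene, and before adjustment 0 and 2 T cell genes were below 0.05. In no T cell gene were the groups separate, whereas active tumours lay above in 6.03% and below in 7.57% of all genes. The median moved between -0.59 and 0.40 when a single tumour was left out.

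At week 18, Cd3e had a log2 fold change of -0.68 (standard error 0.48), Cd3d of 0.15 (0.70), Cd3g of -0.06 (0.63) and Cd247 of 0.33 (0.48). Cd4 and Cd8a gave 0.84 (0.57) and -0.07 (0.64), and Tcf7 gave 0.77 (0.42). Foxp3 gave -0.58 (0.88). The labels number the tumours but do not say that same-numbered tumours are paired. With the number as a block at week 18, Cd3e gave -0.68 (standard error 0.19, limma p-value 0.0298, and 0.621 after adjustment). A count over the 3 same-numbered pairs was added after the data were seen. The active tumour of all 3 pairs was the lower one for 5 of the 32 genes (Cd3e, Zap70, Skap1, Cd2 and Cd27), where 16.8% of all genes were lower. It was the higher one in all 3 pairs for Cd4 and Tcf7, where 16.1% of all genes were higher. These shares of the 32 genes did not exceed those of all genes.

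Active replicate 1 of week 18 weighed on these values. Leaving the tumour that stood apart aside, it had the lowest value of 11 tumours for 18 of the 32 genes, where 18.0% of all genes were lowest there. Cd3e, Cd3g, Cd8a, Cd8b1, Lck, Cd2, Cd6, Il2rb and Ccr7 were among them. It was the highest for Tcf7, Lef1 and Cd4, where 19.3% of all genes were highest. Sedentary replicate 1 of week 18 was the lowest for 7 genes, where 18.0% of all genes were lowest, and sedentary replicate 2 the highest for 11, where 7.43% of all genes were highest. Without active replicate 1 the median log2 fold change of the 32 genes at week 18 was 0.40, with 25 genes higher and 7 lower in active tumours. Natural killer cell markers summed to 31.2 in that tumour against 154 to 369 in the other 10. The 37 receptor constant and variable genes, 30 of them at a median of 3 reads or fewer, summed there to 17.7 against 43.1 to 116. Adipocyte markers were also lowest there, at 1628, and their part in the result was not tested.

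The effects of activity at the 2 weeks were compared in 1 model over the 12 tumours. The median change of the activity effect from week 12 to week 18 was -1.86 for the 32 genes, against -0.02 over all genes, and all 32 estimates were below 0. Limma called 2 of 19241 genes (0.0104%) and no T cell gene, and 0 of the 32 were below 0.05 before adjustment. edgeR called 0 genes, with 10 T cell genes below 0.05 before adjustment, and DESeq2 called 174 genes (0.904%) and no T cell gene, with 4 such genes. Without active replicate 3 of week 12 the median was -0.21, with 14 genes above and 18 below 0, and limma called no T cell gene (0.0262% of 19099 genes). Without that tumour and active replicate 1 of week 18 it was 0.17. Estimates of the same change were below 0 for 9 of 9 adipocyte markers, with a median of -3.05 (-1.85 without active replicate 3 of week 12), and above 0 for 10 of 10 skeletal muscle markers, with a median of 8.35 (8.16). For B cell markers they were below 0 in 11 of 12, with a median of -2.08, and in 6 of 12 without that tumour, with a median of 0.18. The part of these markers in the result was not tested.

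Averaged over both weeks, limma called 0 of 19241 genes (0%) for activity, with 723 of all genes and 0 T cell genes below 0.05 before adjustment. edgeR called 0 and DESeq2 14 (0.0728%), none a T cell gene, with 3 and 4 T cell genes below 0.05 before adjustment. The median log2 fold change of the T cell genes was 0.83, and 0.01 without active replicate 3 of week 12, with 16 genes higher and 16 lower.

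Tumours of week 18 were set beside those of week 12 because both tables proved to be on 1 scale. Week and any sequencing batch cannot be told apart. Limma called 0 of 19241 genes (0%), with 2379 below 0.05 before adjustment, among them the T cell genes Cd5 and Cd27. edgeR called 0 genes, with 3 T cell genes below 0.05 before adjustment, and DESeq2 called 351 (1.82%), none a T cell gene, with 2 such genes. All 32 estimates were lower at week 18, with a median of -1.35 against -0.04 over all genes. Without active replicate 3 of week 12, 26 of 32 were lower and the median was -0.55. Cd5, a co-receptor that dampens receptor signals, gave -2.26 (standard error 0.89, limma adjusted p-value 0.384) with all tumours and -1.43 (0.50, 0.506) without that tumour. Markers of some other cells were lower at week 18 as well: the median was -3.36 for the 9 adipocyte markers, all with estimates below 0, and -2.71 without that tumour. Mammary epithelial and tumour markers were higher in 8 of 10, with a median of 0.33 (8 of 10 and 0.11 without that tumour). Macrophage and plasma cell markers had medians of -0.07 and -0.08. For B cell markers 12 of 12 estimates were below 0 with a median of -1.88 (11 of 12 and -0.997 without that tumour), and for markers of lymph node stroma and follicles 11 of 12 with a median of -1.42 (10 of 11 and -0.70). Their part in the result was not tested.

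Ratios of a pair of genes within a tumour were taken on normalized counts with 1 added to each, so for genes of few reads they depend on that addition. The Foxp3/Cd3e log2 ratio of sedentary replicate 1 of week 12, -4.15, rests on 0 reads of Foxp3. Over both weeks, none of 8 ratios differed between active and sedentary tumours, all with an adjusted p-value of 0.840 by an exact two-sided permutation test within week, and of 1 without active replicate 3 of week 12. The smallest p-value that 3 against 3 tumours can give within a week is 0.1. The log2 ratio of Cd8a to Cd4 was between -0.71 and 0.53 in 11 tumours, including the one that stood apart (0.31), and -3.43 in active replicate 1 of week 18.

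The ratio of Tcf7 to Cd3e separated the groups at both weeks, in opposite directions. At week 12 its log2 value was 3.63, 2.75 and 2.60 in sedentary and 2.40, 2.26 and 1.85 in active tumours. At week 18 it was 3.93, 2.55 and 3.81 in sedentary and 6.30, 4.07 and 4.28 in active tumours. Active tumours lay below sedentary ones at week 12, by 0.83 on average, and above them at week 18, by 1.46. The difference between these effects, 2.28, was tested after the values of each week had been seen. Activity labels were permuted within each week, so the test was against no activity effect at either week and not against equal effects. The difference had an exact permutation p-value of 0.005 and an adjusted p-value of 0.040 over the 8 ratios. Full separation at both weeks in opposite directions fixes this p-value at the smallest that 400 permutations can give. The p-value therefore adds nothing beyond that separation. Adjusted over all 32 tests made on these ratios, within and over the weeks and of the difference, the p-value was 0.160. Of these, 16 are tests within a week that cannot give less than 0.1, and over the 16 others the adjusted p-value was 0.080. Without active replicate 3 of week 12 the difference was 2.12, with an exact permutation p-value of 0.015 over 200 permutations and an adjusted p-value of 0.120 over 8 ratios.

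**Figure D5:**
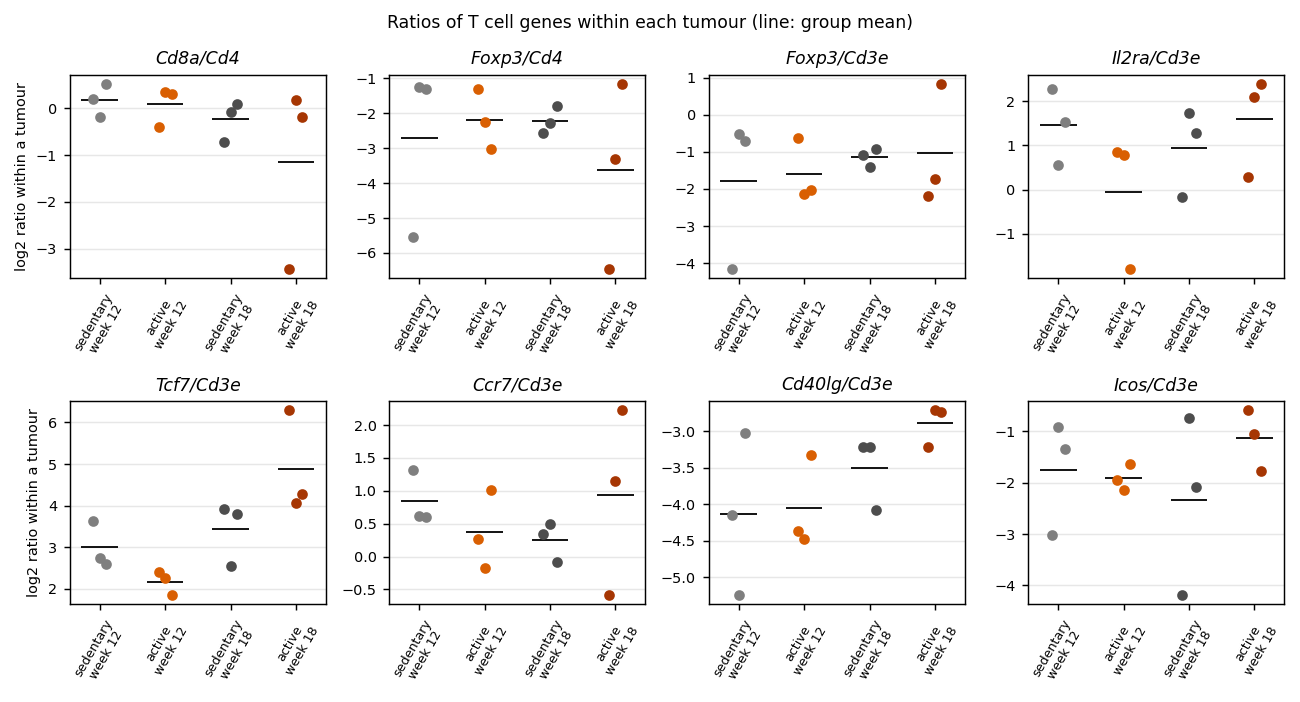
Log2 ratios of 8 pairs of T cell genes within each tumour (points) by group, with group means as lines. Tcf7/Cd3e is lower in all 3 active than in all 3 sedentary tumours at week 12 and higher in all 3 at week 18, and Cd8a/Cd4 is near 0 except for -3.43 in active replicate 1 of week 18.

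The T cell genes differed in how closely they followed each other over the 11 other tumours. Each gene was set against the mean z-score of the other 31, as a description over 11 tumours that share libraries and depth. Cd3d had the highest Pearson correlation (0.96), then Ubash3a (0.95) and Skap1 (0.93). Cd247 had 0.44, and the lowest were Tcf7 (-0.63), Lef1 (-0.36), Cd4 (-0.30) and Bcl11b (0.05). Macrophages can express Cd4, and epithelial and other cells can express Tcf7, Lef1 and Bcl11b, so in whole tumours these genes do not mark T cells alone.

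Among 13613 other genes with a mean of at least 50 over all 12 tumours, Btla was most like the mean of the T cell genes over the 11 tumours. Btla is an inhibitory receptor of lymphocytes (Pearson correlation 0.97, Spearman 0.95, and Pearson 0.94 without the 2 tumours farthest from the median). Klhl6, Cdadc1, Wnt11, Gimap3, Ipcef1, Ccl22, P2ry10, Ly6c2 and Parp11 followed, with Pearson correlations of 0.96 to 0.94. Gimap3 belongs to a family of GTPases of lymphocytes, and Ccl22 is a chemokine made by dendritic cells. In all, 330 of these 13613 genes had a correlation above 0.8. The mean used as filter included the tumour that stood apart, so some genes entered only through their level there. Btla had 1810 normalized counts in that tumour and a median of 35.0 in the other 11. Ccl22 had 952 and 36.7, P2ry10 677 and 32.1, and Ly6c2 473 and 35.0. The 2 farthest tumours were replicates 1 of week 18, one sedentary and one active.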

How the data were processed

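RNA of 12 mammary tumours was sequenced. Per the labels' protocols, RNA was extracted with TRIzol and a stranded mRNA kit was used for the libraries; the submitters' processing notes name the build mm10, and the label descriptions name DEBrowser. The aligner and counter are not given in the sources used here. The authors deposited a normalized signal per gene, and every value was a whole multiple of 1 step per library (100% whole within 0.001), so reads could be recovered. The 12 steps matched a joint median-of-ratios scaling, so week 18 could be set against week 12 as planned. The authors' deposited log2 fold change, fold ratio, p-value, −log10 p and test score were not used.

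Main tests used limma 3.58.1 in R 4.3.3 on log2(value + 1), which understates changes of low genes, over genes whose mean reached 1 in a group, with Benjamini-Hochberg adjustment over all of them at 0.05. edgeR 4.0.16 and DESeq2 1.42.0 were run on recovered reads, which number 20838963 to 28973775 per library and limit low genes. Intervals and floors cover counting error only. The procedure was tested on simulated data. At least 18736 genes differed between any 2 libraries. P-values measure the spread between the tumours of a group. Gene positions are from GENCODE M21 (GRCm38).

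The 32 genes and all lists were chosen with earlier results of these data known. Values per library were printed for the receptor complex, the co-receptors, Foxp3 and the 2 genes with the highest mean of each other role; Lat, Lef1, Cd5, Cd28 and Cd40lg were added after their values were seen, as were the promoters and motifs shown and the test of the difference of ratios. Same-numbered tumours correlated, in their deviations from the group mean across genes, at 0.164, 0.159 and 0.139 at week 18. At week 12 they correlated at -0.034, -0.096 and 0.091. These values are weak and are not set beside those of differently numbered tumours. Whether the numbers pair any tumours is therefore not known. Alternatives covered pseudocount, filter, scaling, test, replicate block and each library left out. Hematopoietic stem cell libraries were not analysed here.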

Additional observations from a re-analysis of the deposited data

Results flagged for a closer look

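The change of the Tcf7/Cd3e log2 ratio with activity differed between the weeks by 2.28. The ratio was lower in active tumours at week 12 and higher at week 18. The difference was tested after the ratio was seen to separate the groups at both weeks in opposite directions. That separation fixes the exact permutation p-value at its minimum, 0.005, so the test is no further support. Adjusted, the p-value was 0.040 over 8 ratios and 0.160 over all 32 ratio tests (0.080 over the 16 that are not tests within a week). Without 1 tumour, the adjusted p-value ran from 0.040 to 0.307 over 8 ratios. The week 18 effect was 1.46 with all tumours and 0.75 without active replicate 1 of week 18. Tcf7 did not follow the other T cell genes over the 11 other tumours (Pearson correlation -0.63). Other cells can express it, so the ratio need not describe T cells alone.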

How the results depend on the processing

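No T cell gene was called by limma in any comparison under any alternative run. Neither edgeR nor DESeq2 called one, but each was run only with all tumours and at a single setting. In fits without 1 tumour, the median log2 fold change of the T cell genes ran from 0.23 to 2.71 at week 12, from -0.59 to 0.40 at week 18, from 0.014 to 1.16 over both weeks, from -2.76 to -0.21 for the change of the effect between weeks and from -1.69 to -0.55 for week 18 against week 12. The value nearest 0 at week 12, over both weeks and for both comparisons between weeks was the one without active replicate 3 of week 12. The median change of the effect was -3.53 with edgeR and -3.58 with DESeq2 (the cause was not tested), and 0.17 without that tumour and active replicate 1 of week 18, a choice made after seeing the data. edgeR and DESeq2 gave medians of 1.83 and 1.80 over both weeks and of -2.19 and -2.21 for week 18 against week 12. Single genes changed sign at week 18 with edgeR and DESeq2, to 0.12 and 0.13 for Cd3g, 0.13 and 0.13 for Cd8a, 0.0054 and 0.0027 for Foxp3 and 0.38 and 0.38 for Ccr7, which also gave 0.12 with a pseudocount of 10 and 0.0017 with TMM scaling; the cause was not tested. Without 1 tumour, log2 fold changes at week 18 ran from -0.40 to 0.71 for Cd3d, -0.59 to 0.50 for Cd3g, -0.085 to 0.73 for Cd247, -0.59 to 0.54 for Cd8a, -1.19 to 0.29 for Cd8b1, -0.088 to 0.65 for Lck, -0.83 to 0.37 for Grap2, -1.17 to 0.48 for Cd2, -0.59 to 0.67 for Cd6, -0.69 to 0.69 for Bcl11b, -1.44 to 0.29 for Foxp3, -1.47 to 0.28 for Il2rb and -0.57 to 1.05 for Ccr7. At week 12 they ran from -0.15 to 2.70 for Cd3g, -0.091 to 2.74 for Cd8a, -0.055 to 2.24 for Grap2, -0.33 to 2.63 for Cd6, -0.05 to 2.00 for Tcf7, -0.60 to 1.55 for Bcl11b and -0.18 to 2.64 for Ccr7, negative in each case without active replicate 3 (-0.050 for Tcf7). The difference of the Tcf7/Cd3e effects ran from 1.58 to 2.69 without 1 tumour, and passed the threshold over 8 ratios in 4 of these 12 fits.

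With the replicate number as a block, the number of T cell genes called was 0 in every comparison, with medians of 1.78 at week 12 and -0.10 at week 18. Over all genes the block moved the calls from 99 to 0 at week 12 and from 2 to 69 for the change between weeks. All-gene counts at week 12 ran from 9 to 71 without 1 tumour, were 208 with DESeq2 and 99 in the main test. At week 18 they were 5 with a pseudocount of 0.1 or without sedentary replicate 1, 1 without a filter and 52 with DESeq2. Depth limits Cd40lg, Sh2d1a, Icos, Themis, Trat1 and Ubash3a most, which had 3 reads or fewer in 3 to 11 tumours.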
